A study of Mus musculus with 6 samples.

Results

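The 7 sirtuin genes of the mouse, Sirt1 to Sirt7, were examined in lacrimal gland RNA, as 7 of the 22564 protein-coding genes in the expression table. They were taken by gene symbol, and the family was chosen on measured values: Sirt4 was picked because its FPKM was lower in AQP5-/- glands, so the Sirt4 difference is given as a description with no test. FPKM counts sequenced fragments per length of transcript and per size of the library. The study compared AQP5-/- mice, in which the gene for the water channel aquaporin 5 was disrupted with CRISPR/Cas9, with AQP5+/+ mice, to learn how loss of the channel alters the gland that makes the watery part of tears. There were 3 AQP5-/- and 3 AQP5+/+ libraries, all of rRNA-depleted total RNA from C57BL/6 mice at 6 months of age. The labels name no treatment for either group. The sources used here do not state the sex of the mice or the number of AQP5-/- founders. The paper counts the sequenced groups as 3 mice each, while the labels do not tie a library to an animal.

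Sirtuins are enzymes that remove acetyl and other acyl groups from lysines and consume NAD+ in doing so, which ties their activity to the energy state of the cell. SIRT1, SIRT6 and SIRT7 are mainly nuclear, SIRT2 is mainly cytosolic, and SIRT3, SIRT4 and SIRT5 are located in mitochondria. SIRT3 is the main mitochondrial deacetylase, SIRT5 removes succinyl, malonyl and glutaryl groups, and SIRT4 is known as an ADP-ribosyltransferase and lipoamidase that restrains glutamate dehydrogenase and pyruvate dehydrogenase. Secretory acinar cells of the lacrimal gland use much ATP for fluid and protein secretion.

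The start-site sequences of Sirt4, Sirt2 and Sirt1 are shown as examples whose sets of motifs differ in part. All 3 genes had lower FPKM in every AQP5-/- library than in any AQP5+/+ library. So did Sirt3, whose windows are described in the last paragraph. The sequences shown are from RefSeq, build GRCm38.p6 (mm10). They run from 250 bases before to 50 bases after the annotated start, read 5′ to 3′ on the strand of the gene. Capitals mark matches to any of 7 motifs searched on both strands. The RefSeq Sirt4 gene extends further upstream, to position 115490264, so the Sirt4 window does not lie at the upstream edge of the gene.
Sirt4 (chr5:115484248-115484547, minus strand): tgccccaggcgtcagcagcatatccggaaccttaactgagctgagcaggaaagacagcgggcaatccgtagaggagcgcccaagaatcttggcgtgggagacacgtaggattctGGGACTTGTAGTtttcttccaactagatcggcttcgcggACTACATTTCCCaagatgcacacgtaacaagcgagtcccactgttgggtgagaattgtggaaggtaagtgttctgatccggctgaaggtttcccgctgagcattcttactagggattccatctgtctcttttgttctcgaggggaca
Sirt2 (chr7:28766502-28766801, plus strand): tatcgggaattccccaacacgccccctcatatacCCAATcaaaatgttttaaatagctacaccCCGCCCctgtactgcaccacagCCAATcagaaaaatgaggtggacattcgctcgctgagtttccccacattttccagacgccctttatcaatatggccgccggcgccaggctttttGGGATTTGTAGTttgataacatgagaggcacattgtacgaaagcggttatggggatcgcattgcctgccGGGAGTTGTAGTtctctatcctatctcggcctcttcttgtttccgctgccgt
Sirt1 (chr10:63338986-63339285, minus strand): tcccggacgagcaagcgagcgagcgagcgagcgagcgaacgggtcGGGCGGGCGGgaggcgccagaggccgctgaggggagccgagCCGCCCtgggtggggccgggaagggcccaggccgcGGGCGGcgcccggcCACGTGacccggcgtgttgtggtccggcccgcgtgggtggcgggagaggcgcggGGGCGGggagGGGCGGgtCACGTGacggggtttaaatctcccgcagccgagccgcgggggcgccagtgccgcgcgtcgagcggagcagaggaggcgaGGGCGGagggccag
The Sirt4 window held 2 matches to a motif known to be bound by the zinc finger protein ZNF143 in human cells, written here as ACTACA, any 2 bases, then TCCC, and none to the other 6 motifs. The Sirt2 window also held 2 such matches, beside 2 of CCAAT, the box bound by nuclear factor Y, and 1 of the SP1 motif GGGCGG. Of 32851 promoter entries in the RefSeq table, 1.81% held this motif at least once and 0.244% held it 2 or more times. Neither Sirt3 window held it. The motif was chosen after these windows had been read, so the shared match is a description of the letters. The Sirt1 window was the richest in G and C of the family, at 79% against a median of 52.7% over all entries. It held 7 matches of GGGCGG, 2 of which overlapped each other, and 2 of CACGTG, the E-box bound by MYC and USF factors. GGGCGG was present in 35.7%, CCAAT in 37.4% and CACGTG in 7.15% of all entries. TATAAA, present in 13.6% of entries, matched no sirtuin window. A match is not evidence of binding in this tissue.

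The 7 genes lie on 5 chromosomes. In the table, in mm10, Sirt1 is at chr10:63319005-63381704, Sirt4 at chr5:115478010-115484725, Sirt6 at chr10:81621785-81627797 and Sirt5 at chr13:43370710-43395202. Sirt2 at chr7:28756174-28788665, Sirt3 at chr7:140856957-140898643 and Sirt7 at chr11:120618372-120633600 are given loci that also take in a neighbouring gene. Sirt2 and Sirt5 are on the plus strand and the other 5 on the minus strand.

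Each library held between 11244579 and 13723134 estimated fragments on genes. Aqp5 itself was at 0.378, 0.177 and 0.170 FPKM in AQP5-/- libraries, against 153.8, 89.0 and 141.8 FPKM in AQP5+/+ libraries, which fits the genotype labels. Of 11772 genes with a mean of at least 0.5 FPKM, all 7 sirtuins included, 67.0% had a log2 fold change below 0, and the median log2 fold change was -0.12. Member values below can be read against that median. Libraries also differed by features that the genotype labels do not name. The summed FPKM of 4 Y-linked genes was 49.7, 58.0 and 52.1 in AQP5-/- libraries, against 0.320, 33.0 and 0.185 in AQP5+/+ libraries. AQP5-/- 1 and AQP5+/+ 2 contained salivary gland markers, with summed levels of 18350 and 1683 FPKM, against 8.94 to 27.1 FPKM in the other 4 libraries. AQP5+/+ 2 also contained skeletal muscle markers at 93.7 FPKM, against 1.94 to 7.88 FPKM elsewhere.

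**Figure D1:**
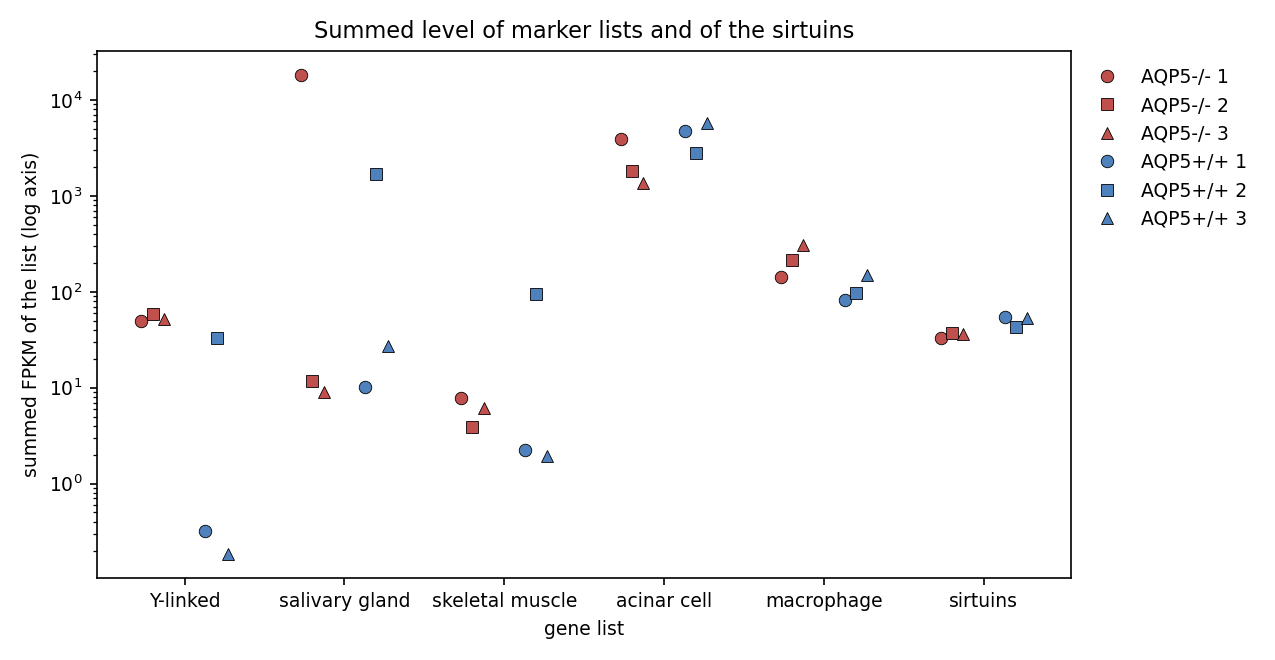
Summed FPKM (log axis) of 5 marker lists and of the 7 sirtuins in each library, with AQP5-/- in red to the left of AQP5+/+ in blue. The Y-linked list is near 0 in AQP5+/+ 1 and 3, the salivary gland list is high in AQP5-/- 1 and AQP5+/+ 2, and the sirtuin sum lies between 33.3 and 37.3 in AQP5-/- libraries and between 42.8 and 55.0 in AQP5+/+ libraries.

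Sirt2 was the most abundant sirtuin mRNA in all 6 libraries, and Sirt3 and Sirt6 had the lowest means over the 6 libraries. Sirt2 made up 35.2% ± 1.96 of the summed sirtuin FPKM in AQP5-/- libraries and 32.1% ± 2.90 in AQP5+/+ libraries (SD, n = 3 each). Sirt4 made up 15.3% ± 1.88 in AQP5-/- libraries and 23.9% ± 2.70 in AQP5+/+ libraries (SD, n = 3 each). The order of the 2nd and 3rd place differed between genotypes: Sirt7 was above Sirt4 in each AQP5-/- library, and Sirt4 was above Sirt7 in each AQP5+/+ library. That exchange rests on the Sirt4 values used to choose the family. Sirt1 was 4th in every library. Sirt5, Sirt6 and Sirt3 followed, and Sirt5 was above Sirt3 in every library. Sirt6 had ranks of 5 to 7 in AQP5+/+ libraries, so its place was not separated from those of Sirt5 and Sirt3 there. Over all genes with a mean above 0 FPKM, Sirt2 stood at the 83.8th percentile, Sirt4 at the 74.3rd, Sirt7 at the 73.3rd, Sirt1 at the 61.5th, Sirt5 at the 51.8th, Sirt6 at the 46.3rd and Sirt3 at the 38.5th.

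**Figure D2:**
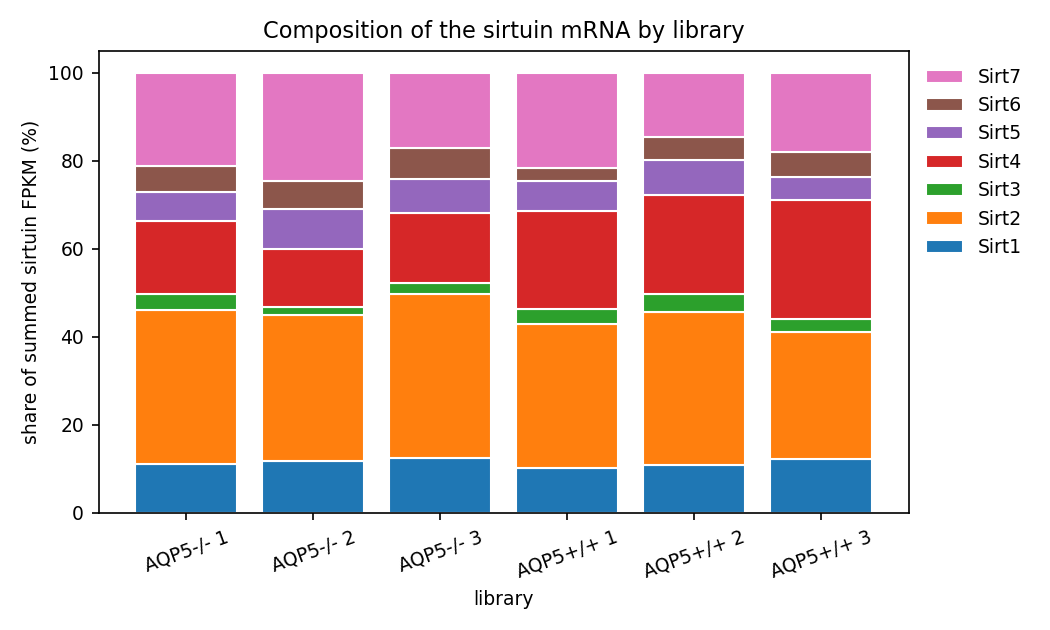
Share of the summed sirtuin FPKM (%) contributed by each gene, one bar per library, AQP5-/- libraries to the left of AQP5+/+ libraries. Sirt2 is the largest segment in each bar, and the Sirt4 segment is 13.2% to 16.7% in AQP5-/- libraries and 22.2% to 27.1% in AQP5+/+ libraries.

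Among the mitochondrial sirtuins, Sirt4 was at 5.57, 4.90 and 5.78 FPKM in AQP5-/- libraries, against 12.2, 9.64 and 14.5 FPKM in AQP5+/+ libraries. The groups were separated by a gap, and the AQP5-/- values were close together while the AQP5+/+ values were spread. Sirt4 averaged 5.42 ± 0.458 FPKM in AQP5-/- libraries and 12.1 ± 2.43 FPKM in AQP5+/+ libraries (SD, n = 3 each), a ratio of means of 0.447. On the log2(FPKM + 0.5) scale, the difference was -1.08 (SE 0.18), or -0.95 after subtracting the median of all genes. The lowest AQP5+/+ value was that of AQP5+/+ 2, the library with Y-linked, salivary and muscle transcripts, and the AQP5-/- mean was 0.562 of that value. The ratio was 0.405 against the mean of AQP5+/+ 1 and 3, which had next to no Y-linked RNA. With the Y-linked level as a covariate the log2 difference was -0.72. That fit leans on AQP5+/+ 2, since every AQP5-/- library had Y-linked RNA and AQP5+/+ 1 and 3 had next to none. Whether sex or tissue carried over in dissection contributed was not tested.

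The size of the Sirt4 difference depended on the deposited measure. In scaled estimated counts, Sirt4 had 75.1, 74.0 and 82.6 in AQP5-/- libraries, against 151.1, 122.9 and 163.3 in AQP5+/+ libraries, and the ratio of means was 0.530. The number of scaled counts per FPKM, which follows the transcript length the authors' software assigned, was 13.5, 15.1 and 14.3 in AQP5-/- libraries and 12.4, 12.7 and 11.3 in AQP5+/+ libraries. Every AQP5-/- library was thus above every AQP5+/+ library in counts per FPKM, as for 3.51% of the 11679 tested genes with values above 0 in all libraries. The log2 difference in recovered fragments was -0.76 with edgeR and -0.76 with DESeq2. Sirt4 rested on 64 to 93 fragments per AQP5-/- library and 131 to 165 fragments per AQP5+/+ library.

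**Figure D3:**
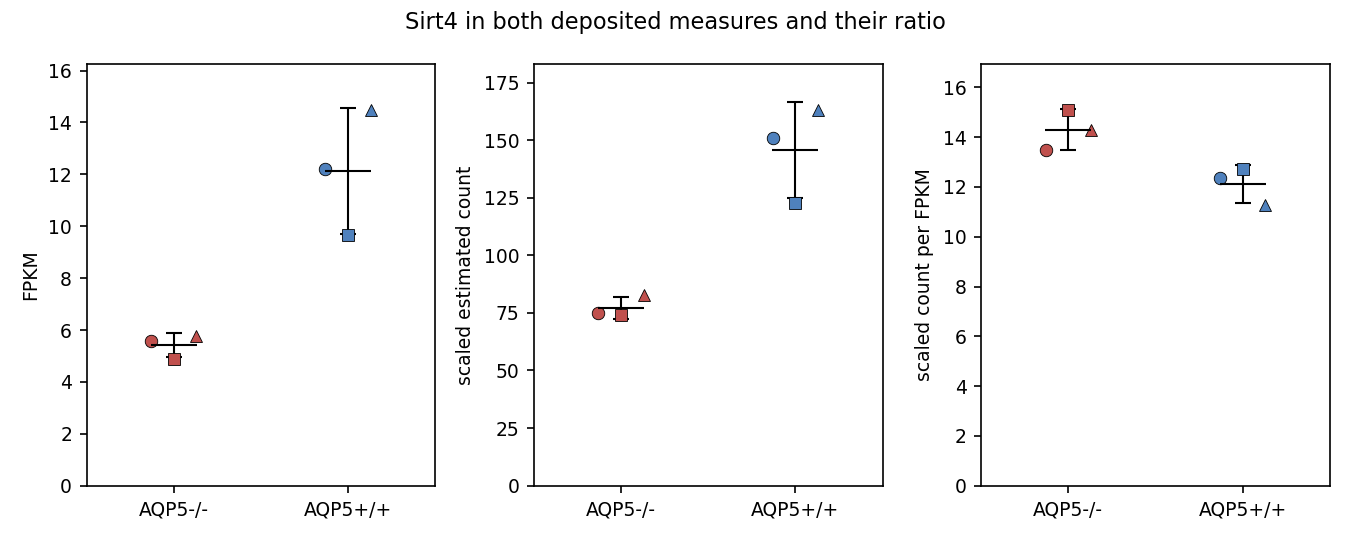
Sirt4 in each library as FPKM (left), scaled estimated counts (middle) and scaled counts per FPKM (right), with AQP5-/- to the left of AQP5+/+. Points are libraries and bars the mean and SD (n = 3). The groups are separated in all 3 panels, and in the right panel AQP5-/- libraries are the higher ones, at 13.5 to 15.1 against 11.3 to 12.7.

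Sirt3, the gene for the main mitochondrial deacetylase, was at 1.18, 0.631 and 0.872 FPKM in AQP5-/- libraries, against 1.96, 1.71 and 1.56 FPKM in AQP5+/+ libraries. All AQP5-/- values were below all AQP5+/+ values. The log2 difference was -0.70 (SE 0.23) with a limma adjusted p of 0.431, so it did not pass over all genes. The measurement was shallow, with 55 fragments summed over AQP5-/- libraries and 113 over AQP5+/+ libraries. The start of Sirt3 lies 85 bases from that of Psmd13, a proteasome subunit gene on the other strand, and both share 1 locus in the table. Psmd13 was at 14.3, 22.8 and 17.0 FPKM in AQP5-/- libraries, against 23.7, 18.0 and 18.2 FPKM in AQP5+/+ libraries, and its groups overlapped.

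Sirt5, which encodes the mitochondrial desuccinylase, was at 2.19, 3.42 and 2.84 FPKM in AQP5-/- libraries, against 3.80, 3.41 and 2.79 FPKM in AQP5+/+ libraries. The groups overlapped. Its log2 difference of -0.22 (SE 0.21, limma adjusted p = 0.641) was about as large as its error.

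The cytosolic tubulin and histone deacetylase gene Sirt2 was at 11.7, 12.4 and 13.5 FPKM in AQP5-/- libraries, against 17.9, 14.9 and 15.5 FPKM in AQP5+/+ libraries. The groups did not overlap, in FPKM or in scaled counts. As for Sirt4, scaled counts per FPKM were higher in each AQP5-/- library, at 31.2, 32.2 and 31.5, than in any AQP5+/+ library, at 29.5, 29.7 and 30.7. The log2 difference was -0.35 (SE 0.13) and the limma adjusted p was 0.431. Its start lies 108 bases from that of Nfkbib, an inhibitor of NF-kappa-B, on the opposite strand. Nfkbib was at 13.6, 12.6 and 11.3 FPKM in AQP5-/- libraries, against 8.51, 11.6 and 6.56 FPKM in AQP5+/+ libraries, a log2 difference of 0.50 (SE 0.21, limma adjusted p = 0.432) with groups that overlapped. The neighbour thus had the opposite sign to Sirt2. Both genes share 1 locus in the table, both the labels and the paper name kits that keep strand but do not say if strand entered the counting, and reads of overlapping transcripts of such pairs may not have been told apart.

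Of the nuclear sirtuins, Sirt1, which encodes a deacetylase of histones, p53 and FOXO factors, was at 3.66, 4.35 and 4.52 FPKM in AQP5-/- libraries, against 5.60, 4.67 and 6.49 FPKM in AQP5+/+ libraries. The groups did not overlap in FPKM, although AQP5-/- 3 and AQP5+/+ 2 were close. The log2 difference was -0.37 (SE 0.18, limma adjusted p = 0.437). In scaled counts the Sirt1 groups did overlap, with 217.3, 244.1 and 295.7 in AQP5-/- libraries and 345.3, 247.7 and 352.8 in AQP5+/+ libraries. Against AQP5+/+ 2 alone, the AQP5-/- mean FPKM was 0.895 of its value.

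Sirt6, a histone H3 deacetylase gene with roles in DNA repair and telomere maintenance, was at 1.95, 2.34 and 2.51 FPKM in AQP5-/- libraries, against 1.61, 2.27 and 3.07 FPKM in AQP5+/+ libraries. The AQP5-/- values lay inside the range of AQP5+/+ values. Its log2 difference was -0.00028 (SE 0.24, limma adjusted p = 0.9995), and its sign changed with the scaling, to 0.14 with median centring. Ankrd24, an ankyrin repeat gene on the other strand, starts 29 bases from the upstream edge of the RefSeq Sirt6 gene. It was at 8.38, 13.6 and 4.46 FPKM in AQP5-/- libraries, against 17.0, 7.82 and 12.9 FPKM in AQP5+/+ libraries, with groups that overlapped.

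Sirt7, which encodes a nucleolar deacetylase that acts on rRNA gene transcription, was at 7.06, 9.20 and 6.21 FPKM in AQP5-/- libraries, against 11.9, 6.21 and 9.65 FPKM in AQP5+/+ libraries. The lowest value of each group was the same to 3 digits. The log2 difference was -0.26 (SE 0.25, limma adjusted p = 0.643), and it was 0.30 with the Y-linked level as a covariate. That covariate fit leans on AQP5+/+ 2, since AQP5+/+ 1 and 3 had next to no Y-linked RNA. Against AQP5+/+ 2 alone, the AQP5-/- mean was 1.21 of its value, and against AQP5+/+ 1 and 3 it was 0.696. Mafg, a small MAF transcription factor gene that shares 1 locus with Sirt7 in the table, was at 6.42, 6.82 and 5.81 FPKM in AQP5-/- libraries, against 13.1, 7.46 and 15.7 FPKM in AQP5+/+ libraries. Its groups did not overlap, and its log2 difference was -0.82 (SE 0.26, limma adjusted p = 0.431).

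**Figure D4:**
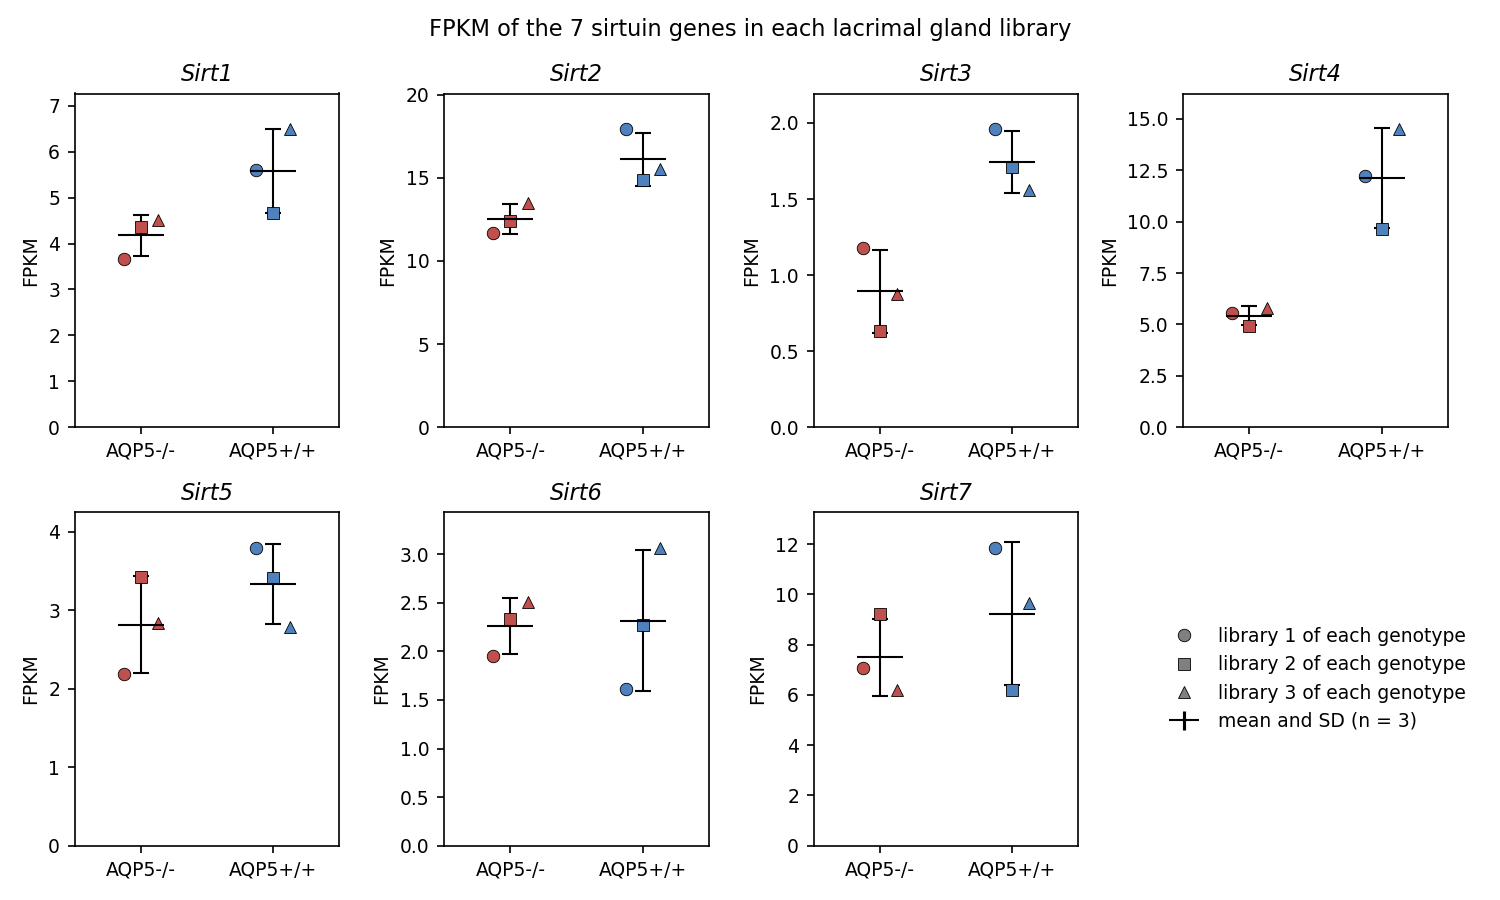
FPKM of each sirtuin in each library, with AQP5-/- to the left of AQP5+/+. Points are libraries and bars the mean and SD (n = 3). The groups are apart for Sirt1, Sirt2, Sirt3 and Sirt4 and overlap for Sirt5, Sirt6 and Sirt7.

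Of the 6 sirtuins other than Sirt4, 0 passed a limma adjusted p under 0.05, as did 0.017% of all 11772 tested genes. At an unadjusted p under 0.05, 2 of the 6 were lower in AQP5-/- glands (Sirt2 and Sirt3) and 0 were higher, against 8.12% of all genes lower and 3.27% higher. With edgeR's quasi-likelihood test and with DESeq2 on recovered fragments, 0 of the 6 were under 0.05 before or after adjustment. None of the 6 had a fold change of at least 2 with an unadjusted p under 0.05, a threshold passed by 0.883% of all genes as lower and 1.16% as higher in AQP5-/- glands. With median centring, the numbers of genes past that threshold were 58 lower and 172 higher, in place of 104 and 136. In FPKM, 3 of the 6 had every AQP5-/- library below every AQP5+/+ library and 0 had the opposite, while 11.1% of all tested genes were separated as lower and 3.86% as higher. After median centring the same 3 genes were separated, against 7.83% of all genes as lower and 8.66% as higher. The median log2 difference of the 6 was -0.30, beside -0.12 for all tested genes. The family was proposed with these values known, so the counts describe it and do not test it. In bulk RNA, fewer cells of a type and less RNA per cell cannot be told apart.

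**Figure D5:**
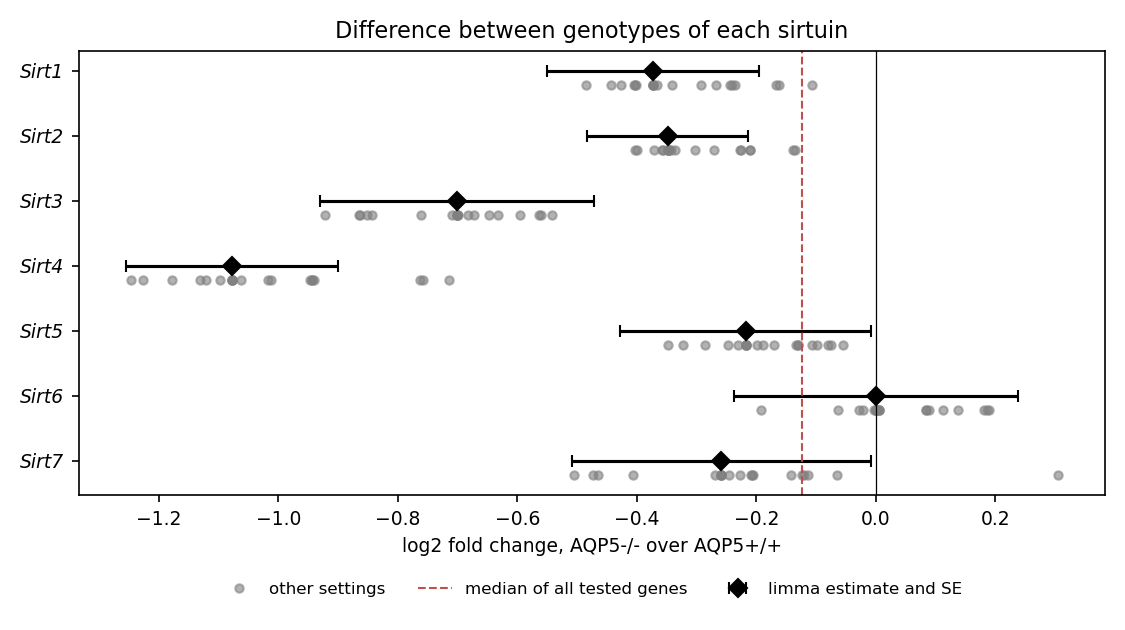
Log2 fold change (AQP5-/- over AQP5+/+) of each sirtuin. Diamonds are the limma estimates on log2(FPKM + 0.5) with their SE, grey points the estimates under the other settings, and the dashed line the median of all tested genes, -0.12. Sirt4 lies farthest to the left at -1.08, and Sirt6 lies at 0.

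Sirtuin mRNA levels were read beside the summed levels of cell type markers. The summed acinar markers were 3900, 1831 and 1363 FPKM in AQP5-/- libraries, against 4694, 2783 and 5777 FPKM in AQP5+/+ libraries, and the sum was mostly that of Car6, a secreted carbonic anhydrase. Of 11 tested acinar markers, 5 were lower at an unadjusted p under 0.05 and 0 were higher. Over all tested genes, 8.12% were lower and 3.27% higher at that p. Aqp5, the disrupted gene, was 1 of the 5. Only Aqp5 was lower in every AQP5-/- library than in any AQP5+/+ library, a separation seen for 11.1% of all tested genes. For the others of the 5, Xbp1, Spdef, Elf5 and Dmbt1, AQP5+/+ 2 lay among the AQP5-/- values. The summed macrophage markers were 141.6, 215.7 and 307.1 FPKM in AQP5-/- libraries, against 82.9, 98.0 and 148.5 FPKM in AQP5+/+ libraries, and 5 of 8 tested markers were higher at an unadjusted p under 0.05. Of these 8, 4 were higher in every AQP5-/- library than in any AQP5+/+ library, beside 3.86% of all tested genes. The median log2 difference was 0.64 for 6 fibroblast markers, 0.55 for 7 lymphocyte and plasma cell markers and -0.46 for 6 endothelial markers. At an unadjusted p under 0.05 in limma, 1 fibroblast marker was higher and 0 were lower. None of the lymphocyte and plasma cell markers were under that p, and of the endothelial markers 1 was lower and 1 was higher. The summed level of the 6 sirtuins other than Sirt4 was 27.7, 32.4 and 30.4 FPKM in AQP5-/- libraries, against 42.8, 33.1 and 39.1 FPKM in AQP5+/+ libraries. The part of cell composition in the sirtuin values was not tested. Without AQP5-/- 1 and AQP5+/+ 2, the log2 difference was -1.25 for Sirt4, -0.85 for Sirt3, -0.47 for Sirt7, -0.40 for Sirt1, -0.36 for Sirt2, -0.06 for Sirt5 and 0.09 for Sirt6. In that limma fit 0 of the 6 sirtuins other than Sirt4 passed an adjusted p under 0.05, while 616 of all genes did.

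Genes that supply NAD+, other enzymes that use it, regulators of sirtuins and their substrates were counted in 10 lists written from general knowledge, with 140 tested genes in all. None of these genes passed a limma adjusted p under 0.05. A fold of 2 with an unadjusted p under 0.05 was passed by 1 list gene, beside 0.883% of all genes lower and 1.16% higher. That gene was Naprt, which acts on the route from nicotinic acid to NAD+. It was at 0.543, 0.317 and 0.380 FPKM in AQP5-/- libraries, against 3.63, 0.512 and 3.42 FPKM in AQP5+/+ libraries. The log2 difference was -1.48 (SE 0.52, limma adjusted p = 0.431). AQP5+/+ 2 was thus among the AQP5-/- values, and the 2 high libraries were those with next to no Y-linked RNA. Leaving out AQP5+/+ 2 raised the number of list genes past the threshold to 6, leaving out AQP5-/- 1 gave 2, and leaving out AQP5+/+ 3 or AQP5-/- 2 gave 0.

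Within the NAD+ synthesis list, 2 of 9 tested genes were lower and 1 was higher at an unadjusted p under 0.05. Over all tested genes, 8.12% were lower and 3.27% higher at that p. Nadsyn1, the glutamine-dependent NAD+ synthetase, was at 1.92, 1.39 and 1.01 FPKM in AQP5-/- libraries, against 2.18, 2.59 and 3.01 FPKM in AQP5+/+ libraries. Nmnat3, the mitochondrial adenylyltransferase of the pathway, was at 6.08, 5.94 and 5.89 FPKM in AQP5-/- libraries, against 3.67, 5.48 and 3.56 FPKM in AQP5+/+ libraries. The groups did not overlap for either gene, and Nmnat3 was the higher one in AQP5-/- glands. Nampt, the rate-limiting enzyme of NAD+ salvage, was at 8.35, 5.75 and 9.01 FPKM in AQP5-/- libraries, against 6.70, 8.03 and 10.3 FPKM in AQP5+/+ libraries, and its groups overlapped. Nadsyn1, Nmnat3 and Nampt were singled out after their values were seen. Of 15 tested genes that use NAD+ outside the sirtuins, 2 were lower and 0 were higher at that p. The most abundant were Tnks2, a tankyrase, with 18.3 to 21.4 FPKM in AQP5-/- libraries and 21.5 to 25.9 FPKM in AQP5+/+ libraries, and Parp1, the main poly(ADP-ribose) polymerase, with groups that overlapped.

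Of the substrates of SIRT1 and SIRT2, 7 of 24 tested genes were lower in AQP5-/- glands at an unadjusted p under 0.05 and 0 were higher, beside 8.12% of all genes lower and 3.27% higher. The list median was -0.24 on the log2 scale, beside -0.12 for all genes. Foxo3, a stress response transcription factor, was at 9.60, 11.1 and 8.81 FPKM in AQP5-/- libraries, against 20.9, 11.8 and 21.6 FPKM in AQP5+/+ libraries. Its log2 difference was -0.80 (SE 0.24, limma adjusted p = 0.431). The groups did not overlap, but AQP5+/+ 2 lay next to the AQP5-/- values. The other 6 were Foxo4, Ppara, Atg7, Map1lc3b, Bub1b and Fzr1, with log2 differences from -0.78 to -0.48. Atg7 and Map1lc3b act in autophagy, and Bub1b and Fzr1 in mitosis. Atg5, also of autophagy, and Cdc20, also of mitosis, had log2 differences of 0.002 and 0.02. Apart from Map1lc3b, these genes were chosen after their values were seen. Srebf1, a regulator of lipid synthesis and one of the most abundant genes of the list, had a log2 difference of 0.17 (SE 0.37).

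Substrates and partners of SIRT4 had a median of 0.02 on the log2 scale over 13 tested genes, with 1 lower and 1 higher at an unadjusted p under 0.05. Over all genes 8.12% were lower and 3.27% higher at that p, and the median was -0.12. Slc25a5, an ADP/ATP carrier, was at 98.9, 88.1 and 89.8 FPKM in AQP5-/- libraries, against 84.1, 78.7 and 100.5 FPKM in AQP5+/+ libraries. Ide, the insulin-degrading enzyme, had a log2 difference of 0.05 (SE 0.13). Of 19 tested SIRT3 substrates 1 was lower, and of 11 tested SIRT5 substrates 0 were. The list medians were -0.06 for SIRT3 and -0.23 for SIRT5 on the log2 scale. Atp5a1, a subunit of ATP synthase, and Pdha1, a subunit of pyruvate dehydrogenase, had log2 differences of -0.07 (SE 0.13) and -0.42 (SE 0.21). Sod1, the cytosolic superoxide dismutase, was at 78.6, 87.6 and 94.2 FPKM in AQP5-/- libraries, against 119.1, 79.9 and 149.4 FPKM in AQP5+/+ libraries, and Idh2, mitochondrial isocitrate dehydrogenase, had a log2 difference of -0.25 (SE 0.15). Among 17 tested partners of SIRT6 and SIRT7, 0 were under that p in either direction, and the list median was -0.18. Npm1 and Ubtf, which act in the nucleolus, had log2 differences of -0.22 (SE 0.21) and -0.23 (SE 0.18).

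Of 10 tested zinc-dependent histone deacetylases, which do not use NAD+, 1 was lower at an unadjusted p under 0.05, beside 8.12% of all genes. This was Hdac11, at 15.1, 17.9 and 14.2 FPKM in AQP5-/- libraries, against 28.7, 22.3 and 23.8 FPKM in AQP5+/+ libraries, a log2 difference of -0.64 (SE 0.15, limma adjusted p = 0.431). Hdac3 had a log2 difference of -0.01 (SE 0.14). Of 11 tested sirtuin regulators 1 was lower, the methyltransferase gene Setd7, with a log2 difference of -0.67 (SE 0.26) and groups that overlapped, while Usp22, a deubiquitinase, was at -0.04 (SE 0.14). Of 19 tested targets of FOXO factors and PGC-1alpha, 1 was lower and 2 were higher, beside 8.12% and 3.27% of all genes. The antioxidant genes Gpx1 and Prdx3 had log2 differences of 0.18 (SE 0.17) and 0.09 (SE 0.12).

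The genes whose log2(FPKM + 0.5) followed each sirtuin most closely over the 6 libraries were named by Pearson's r, as a description of 6 points that share scaling and library composition. For Sirt4 they were Cope, a subunit of the COPI coat (r = 0.999), Mzt1, a mitotic spindle organizer (r = 0.994), and Mcat, the mitochondrial malonyl transferase (r = 0.989). Cope was at 50.9, 49.7 and 51.0 FPKM in AQP5-/- libraries, against 60.5, 56.7 and 62.2 FPKM in AQP5+/+ libraries, so its pattern matched that of Sirt4 at a much smaller log2 difference of -0.24. Another 350 genes besides these had r above 0.9 with Sirt4. For the others the closest were Ccndbp1 for Sirt1 (r = 0.997), Sh3yl1 for Sirt2 (r = 0.994), Mafk for Sirt3 (r = 0.988), Mex3c for Sirt5 (r = 0.993), Trib3 for Sirt6 (r = 0.990) and Plin3 for Sirt7 (r = 0.992). Sirt6 had 31 genes with r above 0.9, and Sirt1 had 706.

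No circular RNA of the sirtuin genes was listed. Of 2541 circular RNAs with 14332 back-splice junction reads in all, 0 had a sirtuin as host gene and 0 overlapped a sirtuin locus. Each library had 2032 to 2953 such reads, so circular RNAs of low level may have been missed. The share of all genes that host a listed circular RNA was not computed. Circular RNAs that the authors' software did not call cannot be seen here.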

How the data were processed

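The labels gave 3 AQP5-/- and 3 AQP5+/+ lacrimal gland libraries. The FPKM, 1 value per protein-coding gene and library, were deposited by the authors. The submitters' processing notes list cutadapt 1.9.3, HISAT2 2.0.4, Cufflinks, Cuffdiff 2.2.1 and build mm10, with no order. The estimated counts deposited by the authors are scaled by 1 factor per library, and dividing by each library's step gave whole fragments (within 0.01) for 88.5% to 90.3% of values. The circRNA junction read counts were deposited by the authors, and the notes list STAR 2.5.1b as well. Another 6 columns of normalized circRNA values made with edgeR 3.16.5 were not used. The labels and the paper name different library kits.

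FPKM were compared with limma 3.58.1 in R 4.3.3 (eBayes, trend) as log2(FPKM + 0.5), two-sided, with Benjamini-Hochberg adjustment over the 11772 genes with a mean of at least 0.5 FPKM. The pseudocount understates changes of low genes. edgeR 4.0.16 (quasi-likelihood, TMM factors) and DESeq2 1.42.0 were alternatives on the recovered fragments, which for DESeq2 and edgeR were rounded. The code was tested on simulated data. Genes were named by rule: the 7 members, Aqp5, adjacent genes and the 3 genes most like each member. Not all adjacent or most alike genes are given. From each list they were those past a fold of 2 and an unadjusted p under 0.05, or otherwise the 2 most abundant. Those named outside this rule are marked. Older symbols were matched through RefSeq. Members, lists and tests were chosen with earlier results of these data known. Replicate numbers come from the library titles and do not pair libraries.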

Additional observations from a re-analysis of the deposited data

How the results depend on the processing

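Sirt1, Sirt2, Sirt3 and Sirt5 kept their sign and stayed above an adjusted p of 0.05 under all 20 alternatives, and the count of 0 among the 6 sirtuins other than Sirt4, by adjusted p or by fold and unadjusted p, did not change. Sizes did: Sirt1 (-0.37) was -0.17 with edgeR and -0.11 with the Y-linked covariate, Sirt2 (-0.35) was -0.14 with edgeR, and Sirt5 (-0.22) was -0.07 without AQP5-/- 1. Their adjusted p ranged from 0.107 to 0.9995 for Sirt1, from 0.109 to 0.9995 for Sirt2, from 0.0825 to 0.9995 for Sirt3 and from 0.522 to 0.9995 for Sirt5. The upper ends came from the fit with the Y-linked covariate, which leans on AQP5+/+ 2. The Sirt4 log2 difference of -1.08 was -0.76 with edgeR, -0.76 with DESeq2 and -0.72 with the Y-linked covariate, and -1.23 to -0.94 when libraries were left out in turn. Sirt6 was at 0.18 with edgeR, 0.19 with DESeq2, 0.0053 with a pseudocount of 0.1, 0.14 with median centring, 0.11 with TMM factors, 0.084 with quantile normalization, 0.0052 with the Y-linked covariate, 0.090 without AQP5-/- 1 and AQP5+/+ 2 (chosen after seeing the data), and -0.19 to 0.19 when libraries were left out in turn. Sirt7 turned to 0.30 with the Y-linked covariate. Of the leave-one-out ranges, Sirt7 spanned -0.50 to -0.06.

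The number of pathway list genes past a fold of 2 and an unadjusted p under 0.05 was 1, and it was 2 with edgeR, DESeq2, median centring, TMM factors or the Y-linked covariate, 3 with a pseudocount of 0.1, 5 with sample weights, 8 without AQP5-/- 1 and AQP5+/+ 2, and 0 to 6 when libraries were left out in turn. Over all genes, 2 passed an adjusted p under 0.05 in limma, 149 with DESeq2, 516 with sample weights and 933 without AQP5+/+ 2. With the replicate block that number was 4, with the Y-linked covariate 11, and without AQP5-/- 1 and AQP5+/+ 2 616. Genes past the fold threshold ranged from 40 to 396 lower and from 43 to 347 higher, against 104 and 136. The cause of these changes was not tested. Same-numbered libraries had correlations of -0.184 to -0.139 in their deviations from the group means, and with the replicate number as a block the Sirt4 value was -1.08, Sirt3 had an adjusted p of 0.576 and 0 of the 6 sirtuins other than Sirt4 were called. The smallest fragment counts in a library were 10 for Sirt3, 46 for Sirt6 and 50 for Sirt5, and the effect of depth was not tested.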

Other observations

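The other sirtuin start sites differed in the motifs they held. The RefSeq promoter entries hold a pair of starts for Sirt3 and for Sirt6. For Sirt4, Sirt5 and Sirt6 the RefSeq gene extends upstream of every start used here. The Sirt3 window that faces Psmd13 held 1 match to CCGGAAG, the core bound by ETS factors, whereas the other Sirt3 window held 4 SP1 motifs and 1 CCAAT box. The Sirt6 window nearer to Ankrd24 held 1 match to the motif of nuclear respiratory factor NRF1 and 1 of CCGGAAG. Sirt7 held 2 ETS motifs and 1 SP1 motif, and Sirt5 held 1 SP1 motif and 1 CCAAT box. The ETS motif was present in 8.86% and the NRF1 motif in 4.6% of all promoter entries.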
